A study of Rattus norvegicus with 8 samples.

Results

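Polypeptide GalNAc transferases (GALNTs) are the enzymes that start mucin-type O-glycans, and 10 of them, Galnt1, Galnt2, Galnt3, Galnt4, Galnt5, Galnt6, Galnt7, Galnt10, Galnt11 and Galnt12, are described here across 8 libraries of rat small intestine. They were chosen by symbol. A locus with exactly that symbol was found for 9 of the 10, all 9 were among the 16941 of 52753 loci tested, and Galnt4 has no value here. RefSeq (assembly GRCr8) places Galnt4 inside the span of Poc1b, and the 2 loci named Poc1b were not taken as a measure of it.

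Both groups were Sprague Dawley rats at postnatal day 21. The study compared 4 libraries labelled cystic fibrosis (CF) with 4 labelled wild type (WT). CF is the inherited disease caused by loss of CFTR, the chloride and bicarbonate channel of epithelia. The labels give neither the Cftr allele, the sex, the litter and the batch nor whether the libraries are separate rats. Any p-value below therefore measures library-to-library spread, which may be technical. Stranded mRNA was sequenced from the whole length of the small intestine after a flush that removed most luminal mucus, and each library held 15.3 to 20.9 M assigned fragments. The mean level of Cftr transcripts was 97.3 ± 6.40 CPM (fragment counts scaled for library size by edgeR; SD, n = 4) for CF and 94.8 ± 14.7 CPM for WT, which checks nothing where the allele is not named. Of 8 listed markers of intestinal epithelium 7 were matched, and all of these had enough fragments to be tested. Markers of other cell types did too, so this alone does not check the tissue label. In such bulk tissue, fewer cells of a type and less RNA per cell cannot be told apart. CF library 0 stood apart in enterocyte markers, 13 of whose 14 listed genes were matched: their summed level was 10478 CPM there against 21888 to 31814 CPM in the other CF libraries and 16418 to 29567 CPM in WT.

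In the Golgi, a GALNT moves N-acetylgalactosamine from UDP-GalNAc onto serine or threonine of a protein, which is the committed step of mucin glycosylation. The family members differ in the peptides they take: some act on bare peptides, while others, such as GALNT7 and GALNT10, prefer peptides that already carry a GalNAc. The chain is then extended, usually first by the core 1 galactosyltransferase C1GALT1, and dense O-glycans of this kind give goblet cell mucus its bottle-brush structure and its water-holding capacity.

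Per length, Galnt6 was the most abundant of the 9 transferases in the tissue and Galnt11 the least. In FPKM (fragments scaled by the authors for transcript length and library size), the mean over the 8 libraries was 85.7 for Galnt6, with a range from 63.1 to 122. Galnt1, the broad and widely expressed starter enzyme, followed at 45.3 (35.8 to 56.8), and Galnt12, a transferase of the digestive tract, at 40.7 (33.5 to 57.1). The follow-up transferases Galnt7 and Galnt10 had means of 30.4 (23.6 to 35.6) and 26.3 (21.6 to 32.1) FPKM. Galnt2, a second broad starter enzyme, had 17.6 (13.6 to 21.2). Galnt3, the closest relative of Galnt6 and known for its action on the phosphate hormone FGF23, had 8.89 (6.59 to 13.3), Galnt5, another starter enzyme for mucin-type peptides, 8.67 (5.997 to 11.2) and Galnt11, an enzyme known from the kidney and from Notch, 5.08 (3.33 to 6.62) FPKM.

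This order held in every library for Galnt6 over Galnt1, Galnt12 over Galnt7, Galnt10 over Galnt2 and Galnt2 over Galnt3. It held in 7 of 8 libraries for Galnt1 over Galnt12, for Galnt7 over Galnt10 and for Galnt5 over Galnt11. Galnt3 and Galnt5 could not be ordered, since Galnt3 was the higher in 3 of 8 libraries. Only the steps from Galnt6 to Galnt1, from Galnt10 to Galnt2 and from Galnt2 to Galnt3 had ranges that did not overlap between the neighbours. RefSeq lists 4 pseudogenes of Galnt12, and fragments of such copies could have been counted with it or kept from it.

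**Figure D1:**
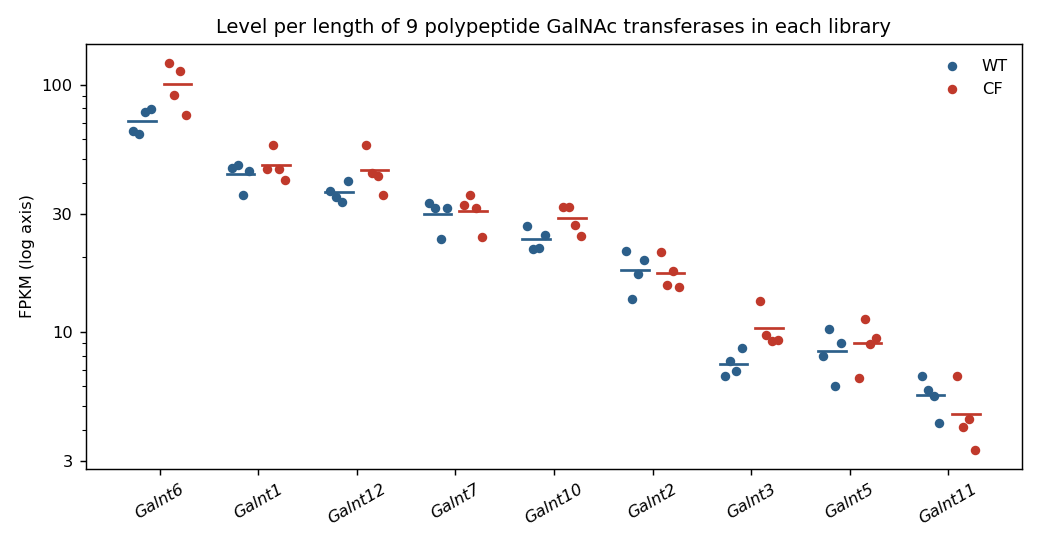
FPKM on a log axis for each of the 9 transferases, ordered by their mean over all libraries, with 4 WT (blue) and 4 CF (red) libraries as points and the group mean as a line. Galnt6 lies between 63.1 and 122 FPKM, above the other 8 in every library, and Galnt11 between 3.33 and 6.62.

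Other family genes had low levels. Of 10 further family genes looked for, Galnt8 had no locus, and Galnt9, Galnt13, Galnt14, Galnt15, Galntl5 and Galntl6 had 18 to 44 fragments each over all 8 libraries, too few to be tested. Galnt16, Galnt17 (named Wbscr17 in the table) and Galnt18 were tested and had mean levels of 0.714, 1.91 and 1.34 FPKM. In CF against WT none of the 3 passed the test: the log2 fold change of Galnt16 was −0.85 (SE 0.34), that of Galnt17 −0.12 (SE 0.31) and that of Galnt18 0.05 (SE 0.25). For Galnt17, 2 loci were matched. The one with most fragments was used, at chr12:29266602-29269022 in Rnor_6.0, and its values may not cover the whole gene.

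The comparison of CF with WT asks whether the transferases that start O-glycans are expressed differently in the CF intestine. Of the 9 members, Galnt6, Galnt3, Galnt12 and Galnt10 had the largest differences, all with higher means in CF. Among these 9, Galnt11 alone had a lower mean, and Galnt1, Galnt2, Galnt5 and Galnt7 differed by less than 1.12-fold. No member passed an adjusted p of 0.05 in edgeR's quasi-likelihood test over all loci, where 0.165% of loci passed (28 of 16941). At an unadjusted p of 0.05, 4 of the 9 passed, Galnt3, Galnt6, Galnt10 and Galnt12, all higher in CF, while 15.1% of all tested loci passed in either direction and 7.94% did so with a higher level in CF. Mean CPM was higher in CF for 8 of the 9 members and for 49.3% of all loci. The members' median log2 fold change was 0.16, and that of all loci was −0.0049.

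Other tests moved the count of members called. DESeq2, which called 3.1% of the loci it gave an adjusted p (566 of 18265), called 1 member, Galnt6 (adjusted p = 0.00912). edgeR without a low-count filter called 1.38% of 40061 loci and 2 members, Galnt6 (adjusted p = 0.0187) and Galnt3 (adjusted p = 0.0277). limma-voom and limma on FPKM called no member.

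Galnt6 (chr7:142320419-142360671 in Rnor_6.0, as are all gene positions below), which starts O-glycans on mucin-type peptides, measured 427, 414, 426 and 433 CPM in CF libraries 0 to 3 and 247, 298, 293 and 360.1 CPM in WT libraries 0 to 3. All 4 CF libraries were above all 4 WT libraries, and they lay within a narrow band, while the WT libraries were spread widely with WT library 0 lowest. The means were 425 ± 8.11 CPM in CF and 299 ± 46.4 CPM in WT (SD, n = 4 each), 1.42-fold higher in CF with a 95% interval from 1.17 to 1.72. The log2 fold change was 0.50 (SE 0.13), with an adjusted p = 0.128 in edgeR's quasi-likelihood test and unadjusted p = 0.00235. Without WT library 0 the log2 fold change was 0.42 and without WT library 3 it was 0.61. On the authors' FPKM scale the groups overlapped, with 75.6 to 122 FPKM in CF and 63.1 to 79.7 FPKM in WT. The lowest CF value was that of CF library 3, where the median FPKM per CPM over all tested loci was also the lowest, at 0.320 against 0.377 to 0.428 in the other libraries.

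Galnt3 (chr3:52174284-52212412), the closest relative of Galnt6, measured 46.3, 27.6, 29.1 and 34.7 CPM in CF libraries 0 to 3 and 21.0, 23.6, 22.9 and 29.1 CPM in WT. The groups overlapped through WT library 3, and CF library 0, the library with the lowest enterocyte markers, was well above the other CF libraries. In log2, CF exceeded WT by 0.51 (SE 0.17, adjusted p = 0.220, edgeR) and, without CF library 0, by 0.34. In FPKM the groups of Galnt3 did not overlap, with 9.21 to 13.3 in CF and 6.59 to 8.59 in WT.

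Galnt12 (chr5:62718787-62750145) measured 86.6, 85.4, 81.6 and 84.9 CPM in CF and 56.8, 71.6, 66.6 and 74.5 CPM in WT. As for Galnt6, the CF libraries were close together and above every WT library, and WT library 0 was the lowest. Galnt12 was 0.33 higher on the log2 scale (SE 0.10, adjusted p = 0.190, edgeR), which is 1.26-fold with a 95% interval from 1.07 to 1.47. In FPKM the groups overlapped, with 35.8 to 57.1 in CF and 33.5 to 40.9 in WT.

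Among the follow-up transferases, Galnt10 (chr10:43067216-43223658) measured 133, 167, 126 and 165 CPM in CF and 113, 119, 109 and 131 CPM in WT. CF libraries 1 and 3 were far above all WT libraries, CF library 0 just above them, and CF library 2 inside the WT range. The difference was 0.32 on the log2 scale (SE 0.12, adjusted p = 0.258, edgeR). Galnt7 (chr16:35926498-36062734), the other transferase of this kind, had overlapping groups, with 162, 152, 163 and 141 CPM in CF and 148, 149.7, 129.9 and 161 CPM in WT, and its log2 fold change was 0.07 (SE 0.10) with a 95% interval from −0.16 to 0.29. A second locus with the symbol Galnt7 held 89 fragments in all against 22503 in the locus used.

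The broad starter enzymes had small differences. Galnt1 (chr18:16106724-16187287) measured 166, 169.5, 169.9 and 169.5 CPM in CF libraries 0 to 3 and 142, 161, 143 and 158 CPM in WT, so the groups did not overlap, but the log2 difference was only 0.16 (SE 0.09, adjusted p = 0.444, edgeR) with a 95% interval from −0.04 to 0.36. Galnt2 (chr19:57003500-57115132) measured 87.8, 90.4, 88.2 and 111 CPM in CF and 96.2, 81.2, 86.05 and 105 CPM in WT. Its groups overlapped throughout, with a log2 fold change of 0.04 (SE 0.12, 95% interval −0.23 to 0.30), and the sign turned with scaling by library totals alone (−0.04).

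Galnt5 and Galnt11 had groups that overlapped. Galnt5 (chr3:44025300-44086022) measured 56.8, 82.6, 75.4 and 90.3 CPM in CF and 63.4, 84.5, 54.9 and 73.6 CPM in WT (log2 fold change 0.14, SE 0.17). Galnt11 (chr4:6297255-6330768) measured 17.0, 11.2, 13.0 and 13.0 CPM in CF and 16.4, 17.96, 17.3 and 13.0 CPM in WT. Its lower mean in CF, −0.25 on the log2 scale (SE 0.16, adjusted p = 0.473, edgeR), left CF library 0 among the WT libraries and WT library 3 among the CF libraries, and without CF library 0 it was −0.38.

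**Figure D2:**
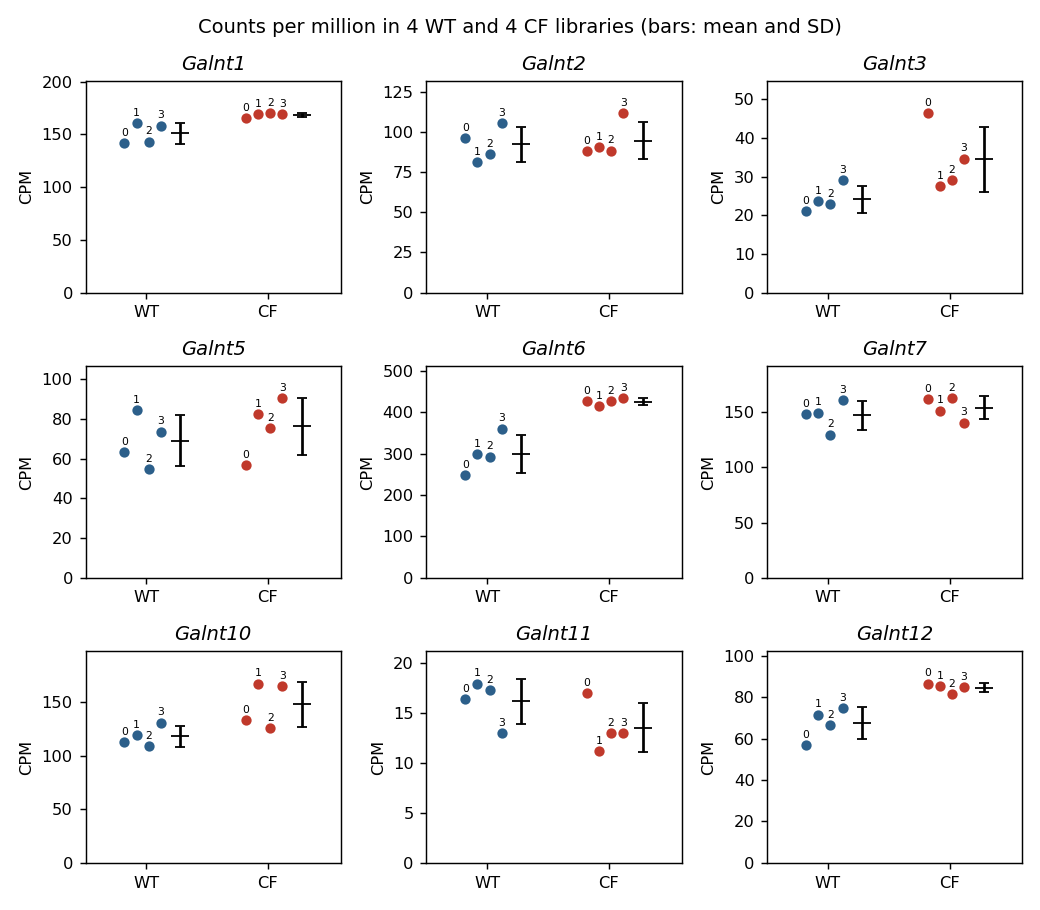
CPM from 0 on a linear axis for each transferase, with 4 WT (blue) and 4 CF (red) libraries as points marked by library number and the mean and SD beside them. The groups do not overlap for Galnt6, Galnt12 and Galnt1, and they overlap for the other 6.

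RefSeq start sites were found for 8 of the 10 genes. For 3 of them, Galnt12, Galnt5 and Galnt11, the site lies within 30 bases of the outer edge of the gene. The 250 bases before it are shown for these 3 for that reason alone, and not by their difference between CF and WT. Capitals mark the letters ACGTG, the core of elements bound by bZIP factors of the Creb3l1 type and part of some E-boxes, and CAGCTG, an E-box of the kind bound by Atoh1, on either strand. All are 5′ to 3′ on the gene's strand in GRCr8, a later build than the Rnor_6.0 of the counts.
Galnt12 (chr5:66179935-66180184, + strand): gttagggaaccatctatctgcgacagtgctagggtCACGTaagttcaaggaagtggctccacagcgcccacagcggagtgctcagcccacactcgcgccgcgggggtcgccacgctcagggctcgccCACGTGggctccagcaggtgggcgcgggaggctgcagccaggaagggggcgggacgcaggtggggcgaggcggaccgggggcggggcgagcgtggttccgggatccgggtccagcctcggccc
Galnt5 (chr3:62982215-62982464, + strand): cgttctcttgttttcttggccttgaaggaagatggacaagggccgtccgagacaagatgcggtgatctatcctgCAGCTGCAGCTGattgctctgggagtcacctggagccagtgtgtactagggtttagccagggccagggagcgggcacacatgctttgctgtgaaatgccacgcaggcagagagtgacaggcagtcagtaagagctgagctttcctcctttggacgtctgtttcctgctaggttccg
Galnt11 (chr4:10604975-10605224, − strand): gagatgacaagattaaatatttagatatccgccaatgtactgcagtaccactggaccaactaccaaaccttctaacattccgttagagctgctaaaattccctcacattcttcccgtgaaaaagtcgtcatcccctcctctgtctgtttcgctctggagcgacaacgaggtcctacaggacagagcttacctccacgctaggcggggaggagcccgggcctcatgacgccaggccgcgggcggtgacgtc
The Galnt12 window holds ACGTG at 3 places, of which an overlapping pair forms the palindrome CACGTG. The Galnt5 window holds CAGCTG at 2 places, side by side, and the Galnt11 window holds neither. Of 27457 windows of 250 bases, 16.9% hold ACGTG at least once and 11.9% hold CAGCTG, and 1.32% hold ACGTG at 3 or more places. The Galnt12 window is 71.6% G and C, while these shares are over windows of any composition. The marked places are matches of letters only.

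The groups did not overlap in CPM for 3 of the 9 members, Galnt1, Galnt6 and Galnt12, where 8.78% of all tested loci did not overlap and 4.86% did so with CF higher. Which members these were depended on the scale. With library totals alone they were Galnt6, Galnt10 and Galnt12 (8.41% of loci), and in FPKM it was Galnt3 (4.3% of loci).

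Within the family, Galnt6 took a larger share of the counts in CF. Of the summed CPM of the 9 members, which reached 1171 to 1242 in CF and 904 to 1106 in WT, Galnt6 held 34.5 to 36.3% in CF and 27.3 to 32.6% in WT. Galnt7 held 11.3 to 13.9% in CF and 14.1 to 16.4% in WT, so this share was lower in every CF library, while its own level overlapped between the groups. The shares within a library add up to the whole, so a larger share of Galnt6 by itself lowers those of the others. These shares are not affected by scaling between libraries, but they are not per length. Of the summed FPKM, Galnt6 held 33.98 ± 3.52% in CF and 29.2 ± 3.69% in WT, with ranges that overlapped, and Galnt12 held 15.2% in CF and 14.996% in WT. The FPKM share of Galnt7 also overlapped between the groups, at 9.64 to 11.9% in CF and 10.4 to 13.4% in WT. The shares were not tested.

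Goblet cells make most of the secreted mucin on which these enzymes act, and most of their markers had higher means in CF. Of 13 goblet cell markers all were matched and 12 tested, 11 had higher means in CF and the median log2 fold change was 0.59. At an unadjusted p of 0.05 in edgeR's test 7 passed, all higher in CF, where 7.94% of all tested loci did so. Of the 12, 1 passed the test over all loci. That was Creb3l1, a transcription factor of secretory cells, which rose by 1.21 on the log2 scale (SE 0.11, adjusted p = 0.00147, edgeR) and averaged 188 ± 21.7 CPM in CF and 81.0 ± 1.59 in WT. Creb3l1 did not pass with limma on log2(FPKM + 1) (adjusted p = 0.145) or log2(FPKM + 0.1) (0.170). The most abundant per length was Zg16, a goblet cell lectin (log2 fold change 0.22, SE 0.29). The outermost differences were those of Spink4, a goblet cell product (2.17, SE 0.38, adjusted p = 0.0674), and Clca1, a secreted protein of mucus (−0.05, SE 0.26). Spink4 was called by DESeq2 (adjusted p = 8.3e-09), by limma on log2(FPKM + 1) (0.0418) and by edgeR without WT library 0 (0.00892). No other alternative called it. Their adjusted p ran from 0.0627 (limma on log2(FPKM + 0.1)) to 0.213 (edgeR without WT library 2). The summed level of the list was 10560 to 15426 CPM in CF and 6772 to 11823 CPM in WT, with none of its genes at 0. It was lowest in WT library 0, the library that was also lowest in Galnt6, Galnt12, Galnt1 and Galnt3. Among the CF libraries the sum was lowest in CF library 0. Of the CF libraries, this one was also the lowest in Galnt1, Galnt2 and Galnt5. It was the highest in Galnt3, Galnt11 and Galnt12, and lay between the others in Galnt6, Galnt7 and Galnt10. The part of goblet cell number in the differences of the transferases was not tested.

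Markers of other cells are given by their counts. Enterocyte markers, 8 of 13 with higher means in CF, had a median log2 fold change of 0.07 and sums that overlapped between the groups. Smooth muscle markers had sums of 5439 to 7390 CPM in CF and 3694 to 5424 CPM in WT (6 of 7 with higher means), and the 7 epithelial markers had sums of 7628 to 12116 CPM and 7566 to 9743 CPM (7 of 7). Paneth cell markers (1 of 5), vessel and fibroblast markers (0 of 5), and neuron and glia markers (1 of 7) mostly had lower means in CF, and leukocyte markers had higher means in 5 of 9. Defa5 of the Paneth list was at 0 in all libraries. No gene of these lists passed edgeR's test over all loci. At an unadjusted p under 0.05, 5 were higher in CF (3 epithelial, 2 smooth muscle). Another 8 were lower (4 vessel and fibroblast, 2 Paneth, 1 leukocyte, 1 neuron and glia). Of all tested loci, 15.1% passed in either direction and 7.94% with CF higher. Median log2 fold changes were 0.35 (epithelial), 0.13 (smooth muscle) and 0.03 (leukocyte). They were −0.61 (vessel and fibroblast), −0.59 (Paneth) and −0.20 (neuron and glia). The part of these cells in the differences of the transferases was not tested.

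**Figure D3:**
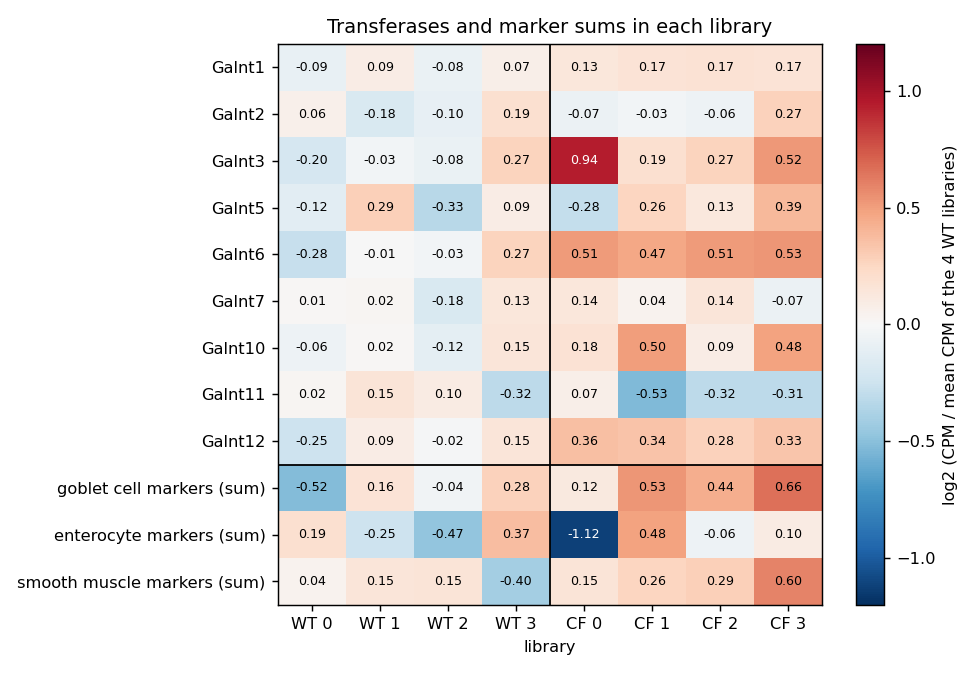
Colour and number give log2 of the CPM in each library over the mean of the 4 WT libraries, for the 9 transferases and for the summed CPM of 3 marker lists. Galnt6 is at 0.47 to 0.53 in the 4 CF libraries and −0.28 in WT library 0, where the goblet cell sum is −0.52, while the enterocyte sum is −1.12 in CF library 0.

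Upstream of the GALNT reaction, most genes that make or carry the sugar donor UDP-GalNAc had higher means in CF, and none of those described passed the test. Of 9 such genes all were tested, 8 had higher means in CF, the median log2 fold change was 0.34 and 0 passed edgeR's test over all loci (4 had an unadjusted p under 0.05, all higher in CF). Of all tested loci, 49.3% had higher means in CF and 7.94% had an unadjusted p under 0.05 with CF higher. The outermost difference was that of Slc35d1, a carrier of nucleotide sugars, with 50.1, 54.9, 47.7 and 76.5 CPM in CF libraries 0 to 3 and 25.2, 38.9, 36.6 and 38.4 CPM in WT. Every CF library was above every WT library, with CF library 3 the highest and WT library 0 the lowest. Its log2 difference of 0.72 (SE 0.18) had an adjusted p = 0.125 in edgeR's test, while DESeq2 (0.0143) and edgeR without a low-count filter (0.00148) called it.

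The Golgi carrier of UDP-galactose and UDP-GalNAc, Slc35a2, named after its values were seen, measured 75.0, 65.2, 68.8 and 80.5 CPM in CF and 38.6, 49.5, 47.9 and 45.6 CPM in WT. Its groups did not overlap either, but with a log2 fold change of 0.67 (SE 0.11) its adjusted p = 0.0522 missed the threshold in edgeR's test. The most abundant of the list per length was Gfpt1, the first and rate-limiting enzyme of hexosamine synthesis (log2 fold change 0.53, SE 0.13, adjusted p = 0.133), which DESeq2 (0.00760) and edgeR without a low-count filter (0.0134) called as well. Pgm3, a later enzyme of the same route, was at −0.02 on the log2 scale (SE 0.15).

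Of 15 genes listed for extending or capping O-glycans, 14 were matched, 13 tested and 7 had higher means in CF. Their median log2 fold change was 0.13, and 4 had an unadjusted p under 0.05 in edgeR's test, all higher in CF. In edgeR's test over all loci 2 passed, B3gnt3 and St6galnac6, both higher in CF. Whether each listed enzyme acts on O-glycans here was not tested. B3gnt3, which extends core 1 chains with N-acetylglucosamine, averaged 8.48 ± 3.60 CPM in CF against 1.69 ± 0.210 CPM in WT (log2 fold change 2.32, SE 0.31, adjusted p = 0.0159, edgeR). St6galnac6, a sialyltransferase, averaged 28.3 ± 1.90 CPM and 14.4 ± 2.15 CPM (0.98, SE 0.13, adjusted p = 0.0156). Both calls were lost without WT library 1, 2 or 3, where adjusted p-values were 0.119, 0.0752 and 0.0940 for B3gnt3 and 0.0814, 0.0752 and 0.0733 for St6galnac6, and with the replicate block (0.0514 and 0.0553). B3gnt3 also missed the threshold without WT library 0 (0.0568) and with limma-voom (0.0665), and neither passed on the FPKM scales. At the other end of the list St6galnac3, another sialyltransferase, was −0.58 on the log2 scale (SE 0.29), and Gcnt3, the branching enzyme with the highest level per length in the list, had 0.39 (SE 0.21).

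C1galt1, which adds the next sugar to the GalNAc that a GALNT has placed and was named after its values were seen, measured 372, 109, 114 and 280.0 CPM in CF libraries 0 to 3 and 57.6, 101, 135 and 98.6 CPM in WT. CF libraries 0 and 3 were far above all others, while CF libraries 1 and 2 lay inside the WT range, and the log2 fold change of 1.15 (SE 0.45) had an adjusted p = 0.288 in edgeR's test. C1galt1c1, which encodes its chaperone and was also named after its values were seen, differed by 0.13 (SE 0.15).

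**Figure D4:**
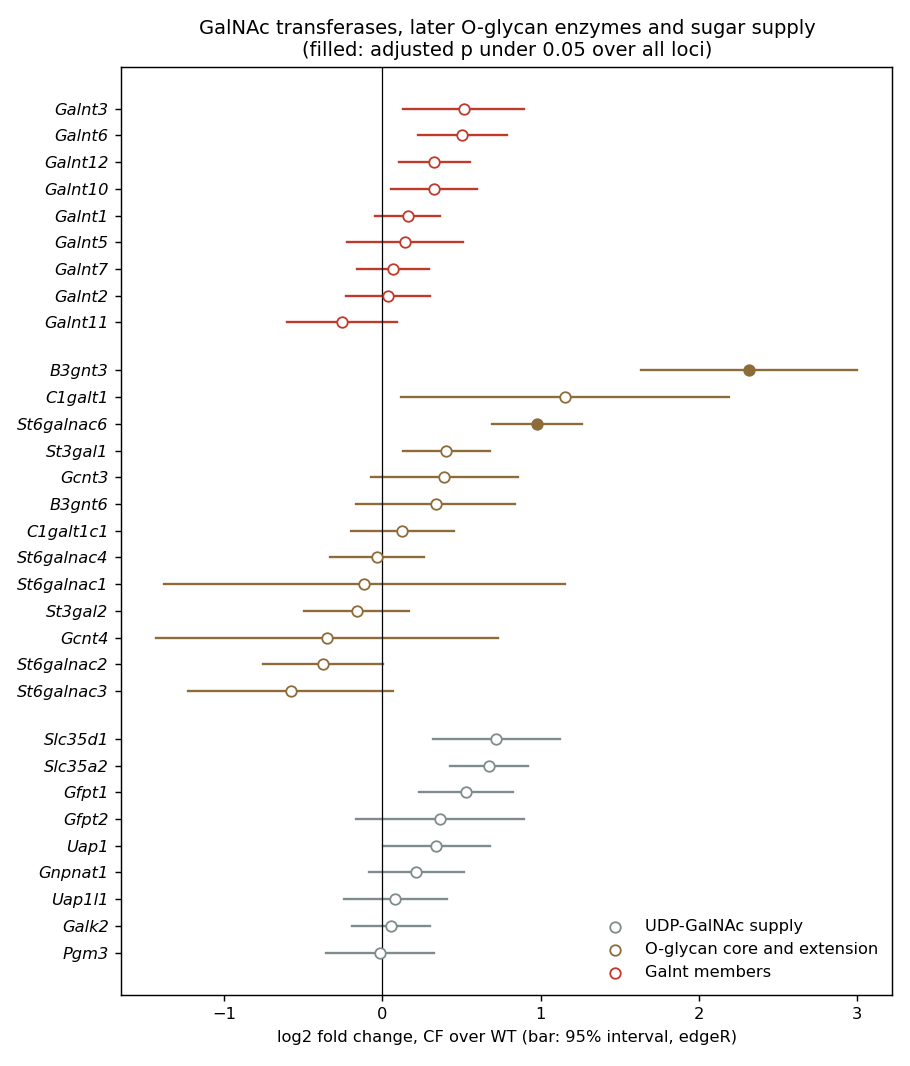
Log2 fold changes of CF over WT with 95% intervals from edgeR for the 9 transferases (red), 13 genes listed for O-glycan extension (brown) and 9 genes of donor sugar supply (grey). Filled points passed an adjusted p of 0.05 over all loci. St6galnac6 (0.98) and B3gnt3 (2.32) are filled, and no transferase is.

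The mucins are the main proteins that these enzymes modify. Of 12 listed, 9 were matched, 5 tested, 3 had higher means in CF and none passed edgeR's test over all loci (Muc2 and Muc1 had an unadjusted p under 0.05, and DESeq2 and edgeR without a low-count filter called Muc2). Muc2, the gel-forming mucin of the intestine, matched through a RefSeq synonym, averaged 3801 ± 608 CPM in CF and 2422 ± 314 CPM in WT (log2 fold change 0.65, SE 0.18, adjusted p = 0.149, edgeR), and the adjusted p was 0.00297 with DESeq2 and 0.00314 in edgeR without a filter. The locus matched to Muc2 has the same bounds as that of Muc6 (chr1:214428526-214693217). Its values may therefore not be those of Muc2 alone, and they also enter the counts and sums of the goblet cell markers. Muc13, a membrane mucin named after its values were seen, averaged 1772 ± 398 CPM and 1774 ± 431 CPM (log2 fold change −0.0018, SE 0.21), and Muc1, a membrane mucin at a low level, had −0.77 (SE 0.28). Over the 27 tested genes of these lists (donor supply, extension and mucins) the median log2 fold change was 0.26, against −0.0049 over all loci.

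As a description over the 8 libraries, the locus outside the family whose log2 CPM was most like that of Galnt6 was Mlx (Pearson r = 0.971). For Galnt12 it was Dbnl (0.971), for Galnt3 Ssr2 (0.985), for Galnt10 Myo1d (0.986), for Galnt1 Esrp1 (0.968) and for Galnt11 Cenpc (0.979). For Galnt5 it was Slc2a10 (0.943), for Galnt7 Hax1 (0.929) and for Galnt2 Slc25a17 (0.907). These values are the highest among the tested loci with a single symbol, the libraries share their depth and scaling with both genes of a pair, and no p is given.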

How the data were processed

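As estimated counts, the unscaled fragments that Cuffdiff assigned to a locus in each library were taken from the authors' deposited table and rounded (5.99% were not whole). The deposited FPKM values, which Cuffdiff scaled per file headers for library and transcript length, were used for levels between genes and for 2 alternatives. The submitters' processing notes name Cuffdiff, StringTie, STAR 2.3.1z, cutadapt and bcl2fastq, and the build Rnor_6.0, whose settings are not known here. The table's 2 other per-library columns were left out. Libraries carry numbers from 0 to 3 in the table and the titles run from 1 to 4, so the group of a library is known but not its title.

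Of several loci with a member's symbol, the one with most fragments was used. Loci were kept by filterByExpr (minimum count 10, minimum total 15), scaled by TMM and tested with edgeR's quasi-likelihood test (robust), with Benjamini-Hochberg adjustment over all 16941 loci and a threshold of 0.05. The standard error is the log2 fold change over the square root of F. The same test was also run on counts simulated with means and dispersions taken from the main fit. At the threshold of 0.05 it recovered 13.4% of simulated 1.5-fold changes, 70.1% of 2-fold and 83.3% of 4-fold changes. These changes were given to 67, 67 and 66 loci, and all other loci had none. Recovery under the adjustment depends on how many loci differ, so the rates may not be those of the real libraries. The members and lists were chosen with earlier results of these data known. Named were all members, the listed family genes, and of each pathway list and the goblet list the called, the most abundant and the outermost genes, while other marker lists are given as counts. A gene of the donor supply list is not reported here and is in none of that list's counts. The rule also named, for each member, the locus most like it. Alternatives changed the scaling, filter, test, unit and libraries. Versions were DESeq2 1.42.0, edgeR 4.0.16 and limma 3.58.1 in R 4.3.3, with matplotlib 3.10.9 and pandas 2.3.3 in Python 3.11.15.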

Additional observations from a re-analysis of the deposited data

Results flagged for a closer look

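Of 50 groups of 4 libraries checked for a value far from the others, 3 had one, where chance gives about 1 in 20. Galnt1 in CF library 0, at 165.6 CPM, lay below the other CF libraries, which were at 169.5 to 169.9 CPM, so that the gap is large only beside their narrow spread. Galnt2 in CF library 3, at 111 CPM, lay above the other CF libraries at 87.8 to 90.4 CPM. Without that library the log2 fold change of Galnt2 was −0.051 in place of 0.04. Slc35d1 in WT library 0, at 25.2 CPM, lay below the other WT libraries at 36.6 to 38.9 CPM, and without that library its log2 fold change was 0.60 in place of 0.72.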

How the results depend on the processing

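The 9 members were refitted under 16 alternatives. Of the 144 values, 135 kept their direction and their side of the threshold, 3 passed it (Galnt6 with DESeq2 and without a low-count filter, Galnt3 without the filter) and 6 turned sign. The turns were those of Galnt2 with library totals alone (−0.041), on log2(FPKM + 1) (−0.035) and on log2(FPKM + 0.1) (−0.036), and with 1 library left out (−0.051 to 0.11), and that of Galnt7 with library totals alone (−0.0077). Members called were 0 in the main test and in all alternatives but DESeq2 (1) and no filter (2), and 0 with any 1 library left out. Over its alternatives the log2 fold change was 0.42 to 0.61 for Galnt6 (adjusted p from 0.00912 to 0.598), 0.34 to 0.61 for Galnt3, 0.25 to 0.38 for Galnt12 and 0.24 to 0.40 for Galnt10. All loci called were 28, against 566 with DESeq2, 553 with no filter, 17 with library totals alone, 17 with limma-voom, 11 on log2(FPKM + 1), 2 on log2(FPKM + 0.1) and 5 to 136 with 1 library left out (136 if CF library 0 is omitted, 77 for CF library 2, 5 for WT library 1 or 2 and 6 for WT library 3). Pathway genes called were 2, against 6 with DESeq2 and 6 with no filter, 1 with limma-voom, 0 on either FPKM scale, and 0 to 3 with 1 library left out (1 without WT library 0 and 0 without WT library 1, 2 or 3). Among other named genes signs turned for Galnt18 (−0.030 with library totals alone, −0.14 to 0.21 with 1 library left out), Pgm3 (0.019 with no filter, −0.11 to 0.12), Galnt17 (−0.35 to 0.068), Clca1 (−0.18 to 0.14) and Zg16 (−0.012 to 0.35), and the cause was not tested. Deviations of same-numbered libraries from their group means had r of 0.07, −0.11, 0.16 and −0.0083. Of the 4 CF libraries, 2 were most like the WT library of their own number. The numbers are not stated to pair animals and were not taken as pairs, but these correlations cannot exclude a shared litter or batch. With the number as a replicate block 11 loci, 0 members and 0 pathway genes were called. With 4 libraries a group, the 95% interval of Galnt6 runs from 1.17-fold to 1.72-fold, which is the precision these libraries give.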
